A study of Mus musculus with 16 samples.

Results

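Pseudogene transcripts of the mouse hippocampus were taken as all transcripts that the expression table assigns to the class of pseudogenes. There were 422 of them, from 332 gene names, among 80137 transcripts in all. RNA-seq had been carried out on hippocampus of male C57BL/6 mice of 3 months, wild type in all groups, with 1 library of total RNA per mouse, both hippocampi of a mouse pooled, and 4 mice per group. Homecage (HC) mice stayed in their cages and received neither shocks nor a test. Control (Ctrl) mice were placed in the shuttle box without shocks and a day later were given 30 trials of escapable foot shock at 0.4 mA. The remaining mice received 180 inescapable foot shocks before the same 30 trials. By their escape failures and latencies they were afterwards assigned to learned helpless (LH) or non-learned helpless (NLH). Escape ended the shock of a trial, so that mice with more failures were also shocked for longer during the test. Tissue was taken 3 h after the test. Levels are FPKM, the fragments of a transcript scaled to its length in kilobases and to the depth of the library.

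Pseudogenes are copies or remains of genes that have lost the capacity to encode the original protein. Processed pseudogenes arose when an mRNA was reverse transcribed and inserted elsewhere in the genome, unprocessed ones arose by duplication of a gene with its introns, and unitary ones are single genes that decayed in place. A polymorphic pseudogene carries a disabling change in the reference strain but is intact in others, and "transcribed" marks loci with evidence of their own RNA. Because a young pseudogene can read almost letter for letter like its parent, short reads from both can be hard to assign.

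The subtype given with the values was processed pseudogene for 140 transcripts, transcribed unprocessed for 99, unprocessed for 88, transcribed processed for 40, polymorphic for 25, unitary for 17, transcribed unitary for 9 and no subtype for 4. These are types of the gene. Of 418 transcripts found in GENCODE vM21 (build GRCm38, the same assembly as mm10), 271 also had a pseudogene type as a transcript, 120 were processed transcripts and 16 were retained introns. The other 4 members were not matched and stay out of the sequence comparisons. The matched members lay on 19 chromosomes, with 0 on X or Y. They were 182 to 7778 bases long with a median of 906.5, and 199 had 2 exons, 214 had more than 2, and 5 had 1. By position, 284 lay outside coding genes, 56 in or across a coding gene on the same strand and 80 on the opposite strand. Exons overlapped a coding exon on the same strand in 13 members and on the opposite strand in 17. Without strand information in the sources used here, reads from both strands of such a locus cannot be told apart.

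How much a pseudogene still resembles a coding gene decides what its level can mean, so the sequences are shown before the values. In a BLAST search against coding transcripts of other genes, 377 members had a match and 41 had no match. A close match, at 80% identity or more over 50% or more of the member and on the same strand, was found for 215 members (51.4%), with a median identity of 92.8%. Among the 4 largest subtypes it was most frequent in unprocessed pseudogenes (65 of 86, median identity 95.6%), followed by processed (80 of 139, 89.8%), transcribed processed (21 of 40, 96.9%) and transcribed unprocessed pseudogenes (39 of 98, 93.5%). Identity reached 99% in 34 members and 100% in 9. Against the length of a read, 291 members (69.6%) shared no window of 150 bases with a transcript of another gene, 45 shared at least 50% of their windows, and 10 shared all. Members with a mean FPKM of at least 1 included 6 of 22 with at least 50% of windows shared, compared with 39 of 396 below that level.

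The sequences that follow are those of members whose levels or correlations are described later. They are reference sequence of GRCm38 from the GENCODE vM21 transcripts, 5′ to 3′ on the strand of the transcript, and each is, of the stretches without gaps that align to coding sequence within an exon of the pseudogene, the one with the most differing bases, so that it can overstate the divergence of the pair. Capitals mark the bases at which a pseudogene and its coding gene differ. Gm8325, a transcribed processed pseudogene at chr3:60877179-60877268 on the plus strand, is shown alone because the corresponding stretch of Ube2v1 at chr2:167617875-167617964, on the minus strand, was identical in all 90 bases. Ube2v1 encodes a ubiquitin-conjugating enzyme variant.
Gm8325: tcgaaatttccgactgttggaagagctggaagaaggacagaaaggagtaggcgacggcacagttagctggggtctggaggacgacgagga

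RP23-354L15.1 (chr12:21545337-21545396, plus strand) is shown with Taf1b (chr12:24500464-24500523, plus strand), which encodes a subunit of the selectivity factor of RNA polymerase I. An in-frame stop codon begins at base 54 of the pseudogene stretch.
RP23-354L15.1: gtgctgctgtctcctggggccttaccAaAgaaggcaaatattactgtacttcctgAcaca
Taf1b: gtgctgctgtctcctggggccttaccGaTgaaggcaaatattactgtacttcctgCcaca

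Znf41-ps (chr4:145828766-145828855, plus strand) and the zinc finger gene Zfp991 (chr4:147179404-147179493, plus strand) lie on the same chromosome, and this is the pair with the fewest differences among those printed with a partner.
Znf41-ps: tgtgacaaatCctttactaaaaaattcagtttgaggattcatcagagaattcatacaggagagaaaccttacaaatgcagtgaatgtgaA
Zfp991: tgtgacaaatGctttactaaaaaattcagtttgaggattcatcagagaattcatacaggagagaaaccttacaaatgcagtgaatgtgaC

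Gm13854 (chr6:33376710-33376799, minus strand) shows the other extreme, with 34 differing bases of 90 against Hspa8 (chr9:40803142-40803231, plus strand), which encodes a constitutive chaperone of the heat shock family.
Gm13854: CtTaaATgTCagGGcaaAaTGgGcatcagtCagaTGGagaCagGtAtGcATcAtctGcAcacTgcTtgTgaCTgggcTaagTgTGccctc
Hspa8: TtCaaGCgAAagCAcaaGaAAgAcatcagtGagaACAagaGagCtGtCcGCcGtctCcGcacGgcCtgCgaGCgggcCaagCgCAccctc

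The last 3 pairs are pseudogenes named after their parents. Alms1-ps1 (chr6:85727364-85727453, plus strand) differed at 9 bases from Alms1 (chr6:85678396-85678485, plus strand), whose protein sits at the centrosome and the base of cilia, with 98.3% identity over the whole alignment. Rpl29-ps1 (chr3:152780888-152780977, minus strand) differed at 11 bases from Rpl29 (chr9:106431241-106431330, plus strand), a protein of the large ribosomal subunit, with 82.7% identity over the whole alignment. Pisd-ps1 (chr11:3129068-3129157, plus strand) differed at 8 bases from Pisd (chr5:32739145-32739234, minus strand), which makes phosphatidylethanolamine in mitochondria, with 93.5% identity over the whole alignment, and its in-frame stop codon begins at base 81.
Alms1-ps1: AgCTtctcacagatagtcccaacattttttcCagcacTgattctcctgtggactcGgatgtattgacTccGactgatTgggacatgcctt
Alms1: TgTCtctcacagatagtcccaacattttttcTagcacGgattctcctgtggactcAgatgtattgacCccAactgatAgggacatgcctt
Rpl29-ps1: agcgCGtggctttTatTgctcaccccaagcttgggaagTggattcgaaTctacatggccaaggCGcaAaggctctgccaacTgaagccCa
Rpl29: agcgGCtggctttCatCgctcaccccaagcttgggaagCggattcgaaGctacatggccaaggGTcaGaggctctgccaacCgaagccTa
Pisd-ps1: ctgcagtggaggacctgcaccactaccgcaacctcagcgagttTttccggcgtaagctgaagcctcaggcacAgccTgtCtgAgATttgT
Pisd: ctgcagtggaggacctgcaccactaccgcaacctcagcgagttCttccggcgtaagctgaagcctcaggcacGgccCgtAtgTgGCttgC

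Reading frames were followed along these alignments in the 213 close members with at least 100 aligned coding bases. An in-frame stop codon was present in 106, a gap that shifts the frame in 147, and either in 160 (75.1%). Among processed pseudogenes 75 of 80 (93.8%) had such an interruption, against 40 of 64 unprocessed (62.5%), 26 of 38 transcribed unprocessed (68.4%) and 13 of 21 transcribed processed ones (61.9%). The remaining 53 members read through the aligned part of the frame without a stop or a shift. They included Gm15429, which matched all 795 coding bases of the gamma-secretase subunit gene Aph1a with 0 substitutions. By contrast Znf41-ps met a stop at codon 116 of Zfp991 after only 6 substitutions in 1719 coding bases, and Rpl29-ps1 held 5 frame-shifting gaps and a changed start codon.

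Pseudogene transcripts were expressed at low levels. The median of the mean FPKM over 16 mice was 0.0821 (quartiles 0.0281 and 0.261), compared with 0.309 for 56384 protein-coding transcripts and 0.113 for 4376 long noncoding transcripts. A mean of at least 1 was reached by 22 members (5.21%), against 27.1% of coding and 7.13% of long noncoding transcripts. Gm12539, at 1.03, was the last member above that level and Gm12096, at 0.976, the next below. Above 0 in all 16 mice were 132 members (31.3%), against 72.2% and 35.3%. Of the 6752 values, 2312 were 0 and a further 586 were above 0 but under 0.001, and with these counted as 0 there were 84 members present in all mice. At the sparse end, 52 members (12.3%) were above 0 in 1 mouse. The highest median among subtypes was that of transcribed processed pseudogenes, at 0.159, and that of processed pseudogenes was 0.0747.

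**Figure D1:**
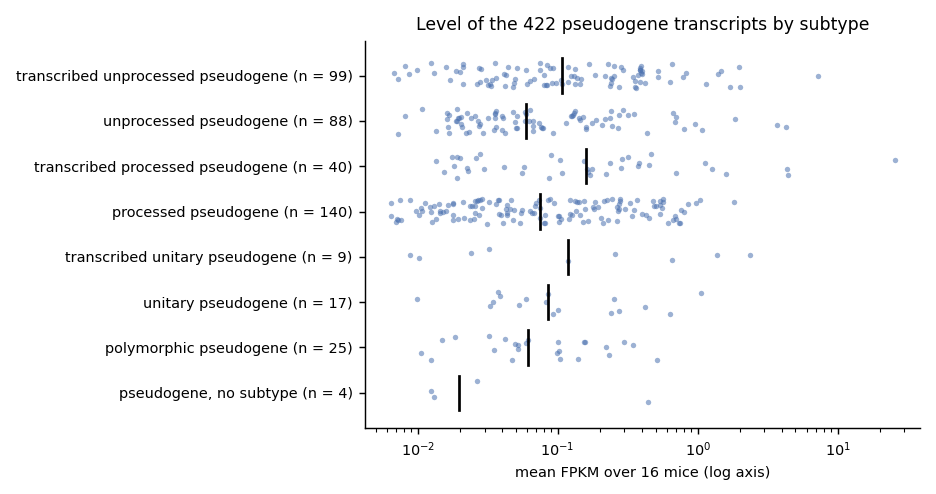
Mean FPKM over 16 mice (x axis, logarithmic) of each of the 422 pseudogene transcripts by subtype, with 1 point per transcript and a black bar at the median of the subtype. Medians of the 8 subtypes lie between 0.0198 and 0.159, and Gm8325, at 25.8, stands apart from the rest.

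Summed over members, pseudogene FPKM was 93.6 to 200.4 per mouse, which was 0.0779% to 0.153% of all FPKM. Group means were 118.5 ± 13.3 for HC, 131.9 ± 22.3 for Ctrl, 164.0 ± 30.8 for NLH and 134.1 ± 31.9 for LH mice (SD, n = 4). Gm8325 alone made up 18.8% of the summed mean levels, and the 10 highest members 42.2%. Without Gm8325 the sum was 93.6 to 123.1 per mouse and the group means lay between 107.1 ± 10.6 in LH and 114.9 ± 5.67 in Ctrl, with overlapping ranges.

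Libraries LH 3 and LH 4 stood apart from the others. They had 10846 and 15504 transcripts of the whole table at 0, compared with 4872 to 7352 in the other 14 mice, and 227 and 171 members above 0, compared with 270 to 302. The depth estimated from the steps in FPKM was 20150000 fragments in LH 4, 24700000 in LH 3 and 23800000 to 38000000 in the others. Of 175 members above 0 in all 14 other mice, 41 were at 0 in LH 4, 11 in LH 3 and 9 in both. Those 9 are RP23-354L15.1, Gm16518, Gm12098, 2810039B14Rik, Atp10d, Gm17838, Gm5345, Gm19210 and Dcdc5, named here after their values were seen. The main counts and the named differences with LH are therefore also given without these libraries. The 7 markers of hippocampal neurons summed to 291.3 to 461.6 FPKM in every library. Choroid plexus markers ranged from 2.64 to 35.9 for HC, 14.6 to 47.7 for Ctrl, 3.22 to 60.0 for NLH and 1.59 to 83.1 for LH mice, with Folr1, Aqp1 and Otx2 at 0 in some mice. Red blood cell markers (143.7 to 458.8), striatal markers (8.26 to 18.3) and oligodendrocyte markers (265.3 to 515.3) also varied, and their part in the results was not tested. In bulk tissue, fewer cells of a type and less RNA per cell cannot be told apart.

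Gm8325 (chr3:60877014-60877314, plus strand) had the highest mean, and its level jumped between mice. It was 10.5, 0, 28.8 and 0 FPKM in the 4 HC mice, 0, 46.8, 0 and 21.3 in Ctrl, 98.2, 43.8, 10.3 and 45.1 in NLH, and 67.7, 15.7, 24.4 and 0 in LH. These are values of its main transcript, while a second one had a mean of 0.0260. All NLH mice were above 0, while each of the other groups held at least 1 mouse at 0, and the groups overlapped. On the log2(FPKM + 0.1) scale used for every fitted difference here, NLH vs. Ctrl was 4.41 ± 2.51 (SE), with an adjusted p of 0.994 by limma. The transcript has 182 bases, all of them identical to Ube2v1, and is shorter than the fragment length of 200 bases assumed for the depth estimate. Ube2v1 itself, summed over its transcripts, was 1.71 to 11.6 FPKM.

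The next members varied far less. Tmem181b-ps (chr17:6440478-6449095, minus strand, 9 exons), a duplicate of the transmembrane protein gene Tmem181a with 98.8% identity over 90.3% of its length, had 7.06 ± 1.24 FPKM in HC mice, 7.68 ± 0.644 in Ctrl mice, 7.22 ± 1.22 in NLH mice and 6.93 ± 2.22 in LH mice (SD, n = 4). Its mean of 7.22 exceeded the 5.45 of Tmem181a, and 40.7% of its windows occur unchanged in another gene's transcripts. Gm2274 (chr14:26156036-26163648, mean 4.26) and Gm2260 (chr14:26016431-26025837, mean 3.69) are partial duplicates of Anxa11, a calcium-dependent phospholipid-binding protein, with 100% identity. They share 98.5% and 100% of their windows, and Anxa11 itself was assigned 2.52. Levels of such pairs depend on how the quantification divided shared reads, and that division was not tested.

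Gm15501, a transcribed processed pseudogene (chr7:93178983-93184176, minus strand), ranged from 0.643 to 9.29 FPKM (mean 4.40). Gm42730 (4.33, from 2.29 to 6.02) and 1700086L19Rik (2.37) had no coding match at all. 1700086L19Rik was 1.81 to 4.24 in HC and 1.36 to 2.50 in Ctrl, and was 1.44e-05 in LH 4. Nlrp5-ps, named after the oocyte gene Nlrp5, which had no transcript in the table used, ranged from 0.795 to 3.68 (2.00). Gm3883 ranged from 0.166 to 3.17 (1.86) and shared 76.6% of its windows. RP23-354L15.1 (1.97) is described with the comparisons.

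**Figure D2:**
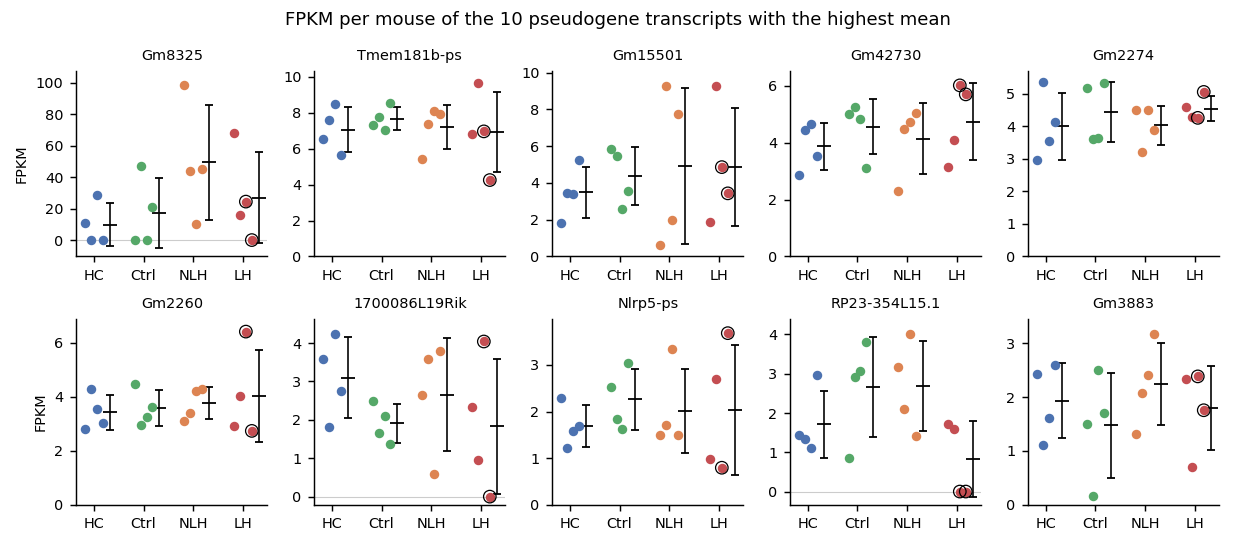
FPKM (y axes) of the 10 pseudogene transcripts with the highest mean, 1 point per mouse by group, with the group mean and SD beside the points and open rings around LH 3 and LH 4. Gm8325 runs from 0 to 98.2 while Tmem181b-ps stays between 4.25 and 9.68 in all 16 mice.

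Among the 54 members with a mean of at least 0.5, the coefficient of variation over mice ran from 11.9% to 110%. Its median was 39.4%, compared with 31.3% in 22638 coding transcripts above the same level. Gm14122, at 0.504, was the last member above that level and Gm3198, at 0.485, the first below it. The steadiest was a transcript of Zfp862-ps, a transcribed unitary pseudogene, and the most variable was Gm8325. Within genes, 46 names had more than 1 member. Ppp4r1l-ps and Zfp783 had 10 each, with 20.4% and 26.7% of the level in the highest of them, whereas the 3 members of Tmem181b-ps had 82.6% in the highest.

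The comparison of Ctrl with HC addresses handling, the shuttle box and the test session. It placed 0 of 422 pseudogene transcripts past limma's threshold of an adjusted p under 0.05 (Benjamini-Hochberg over all transcripts), where the background over the whole table was 0.00374%. At an unadjusted p under 0.05 limma had 7 members, 3 higher and 4 lower, or 1.66% against a background of 3.45%. The test of the study's methods, which compares FPKM with equal variances at an unadjusted p under 0.05, called 10 of 392 members (2.55%, 5 higher and 5 lower) against 6.71% of all transcripts. Groups did not overlap in 3 of 393 members against 4.52% of all, namely Zfp862-ps, Gm11743 and Gm28453, which fall outside the rule for named transcripts and were chosen after their values were seen. By the unadjusted counts and by groups without overlap, the shares of members were thus below the background. The adjusted background was too small for 422 members to show a lower share. Members were also lower in level than coding transcripts, and the part of level in these shares was not tested.

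The named members of this comparison are the 4 with the smallest limma p at a mean of at least 0.5, and by limma all had an adjusted p of 1. Zfp939, a transcribed unprocessed pseudogene of a zinc finger gene, was 0.155, 0.429, 0.361 and 0.382 in HC and 0.592, 0.556, 0.429 and 1.42 in Ctrl (difference 0.90 ± 0.52, exact permutation p = 0.0571). The groups met at 0.429, and Ctrl 4 stood far above the other HC and Ctrl mice, while LH 3 reached 2.10. Gm15429, the uninterrupted copy of Aph1a, was 0.236, 0.278, 0.794 and 0.289 in HC and 1.04, 0.495, 0.287 and 2.08 in Ctrl, with overlap (0.92 ± 0.57, exact permutation p = 0.200). All of its windows occur in another gene's transcripts, and Aph1a differed by -0.08 ± 0.19. Gm14122, a processed copy of the protein phosphatase catalytic subunit gene Ppp1cc, differed by 0.73 ± 0.44, and Gm8173, a copy of the RNA helicase gene Ddx18, by 0.39 ± 0.24. Exact permutation p were 0.114 and 0.0571. A single mouse moved several of these values, since the difference was 0.58 without Ctrl 4 for Zfp939, 0.48 without Ctrl 4 for Gm15429 and 0.38 without HC 3 for Gm14122. With 4 mice against 4, that test cannot give a two-sided p under 0.0286.

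NLH vs. Ctrl asks what differs in mice that were shocked but stayed able to escape. Limma again placed 0 members past the adjusted threshold (background 0.0125%), with a smallest adjusted p of 0.626, and 10 at an unadjusted p under 0.05, 5 in each direction (2.37%, background 5.12%). The methods' test called 16 of 390 (4.10%, background 7.23%), with 5 higher and 11 lower. Groups did not overlap in 9 of 390 (2.31%, background 5.07%). Of these, 2610005L07Rik, Gm13461, Znf41-ps, Minpp1-ps and Gm13535 were lower in NLH, and Gm5601, Gm8615, Mx2 and 5033404E19Rik higher, all but Gm13461 and Znf41-ps named after their values were seen. The member with the smallest adjusted p, Gm43664, was above 0 in only 3 of the 16 mice, Ctrl 1 at 0.0766, Ctrl 2 at 0.0565 and Ctrl 4 at 0.123 FPKM (this gene was picked once the values were known).

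Znf41-ps, an unprocessed pseudogene of 3 exons (chr4:145825237-145829942), led the members with a mean of at least 0.5. Its FPKM was 1.01, 0.437, 0.941 and 0.715 in HC mice, 0.896, 0.873, 0.943 and 0.970 in Ctrl, 0.696, 0.743, 0.152 and 0.367 in NLH, and 1.21, 1.06, 1.05 and 0.625 in LH. Every NLH mouse was below every Ctrl mouse, and LH overlapped both. NLH vs. Ctrl was -0.94 ± 0.35 (adjusted p = 0.854 by limma, exact permutation p = 0.0286), and -0.59 without NLH 3. LH vs. NLH, which uses the same NLH mice, was 1.00 ± 0.35 (adjusted p = 0.458 by limma, exact permutation p = 0.0857), and 1.22 ± 0.42 without LH 3 and LH 4, but 0.64 without NLH 3. Zfp991, its close relative at 99.5% identity, had means of 0.773 for HC, 0.782 for Ctrl, 0.449 for NLH and 1.05 for LH mice, differing by -0.80 ± 0.31 in NLH vs. Ctrl (adjusted p = 0.734 over gene sums by limma) and by 1.19 ± 0.31 in LH vs. NLH (adjusted p = 0.332 by limma). Of the windows of Znf41-ps, 67.8% occur unchanged in a transcript of another gene.

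Gm13461 (chr2:41987473-41988829, inside Lrp1b), a processed copy of the nuclear transport GTPase gene Ran with 97.3% identity, was 0.915, 1.62, 1.09 and 1.10 in Ctrl and 0.683, 0.907, 0.399 and 0.406 in NLH. These groups did not overlap (-0.91 ± 0.51, adjusted p = 0.994 by limma, exact permutation p = 0.0286). LH mice spread from 0.130 to 2.14 and overlapped both. Gm14415, related to Zfp970, differed by -0.79 ± 0.42 and Gm9311, a copy of the UDP-xylose synthase gene Uxs1, by -0.40 ± 0.22, with exact permutation p of 0.143 and 0.0571. Without NLH 3, Gm14415 differed by -0.47.

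LH vs. NLH compares helpless with non-helpless mice after the same induction, though not the same shock time in the test, whereas in LH vs. Ctrl the inescapable shocks and helplessness cannot be told apart. In LH vs. Ctrl, limma placed 0 members past the adjusted threshold (background 0.0462%, smallest adjusted p 0.268, again Gm43664) and 26 at an unadjusted p under 0.05 (6.16%, background 10.7%), with 6 higher and 20 lower. The methods' test called 16 of 384 (4.17%, background 7.73%). After transcripts called in Ctrl vs. HC or NLH vs. Ctrl were left out, as the study did, 13 of 360 remained called (3.61%, background 6.18%), 4 higher and 9 lower. The study itself lists more pseudogene transcripts as differentially expressed in both LH comparisons, most of them lower in LH. The reason for this gap was not tested. Groups did not overlap in 9 of 384 (2.34%, background 5.93%), with 2810025M15Rik and Gm16300 higher in LH and 7 lower. In LH vs. NLH there were 0 members past the adjusted threshold (background 0.0412%, smallest adjusted p 0.425 for RP23-354L15.1), 18 at an unadjusted p under 0.05 (4.27%, background 8.72%; 5 higher, 13 lower), and 12 of 386 called by the methods' test (3.11%, background 4.49%). After the exclusion these were 9 of 364 (2.47%, background 3.97%), 2 higher and 7 lower. Groups did not overlap in 5 of 387 (1.29%, background 3.22%). These are Gm6483, Gm14416, Nlrp1c-ps, Dcdc5 and Gm16523, of which only Nlrp1c-ps comes under the rule for named transcripts, the rest having been chosen after their values were seen.

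Directions in both comparisons turned on LH 3 and LH 4. Without them limma had 29 members at an unadjusted p under 0.05 against Ctrl (6.87%, background 14.3%), 20 higher and 9 lower, and 19 against NLH (4.50%, background 11.1%), of which 15 were higher and 4 lower. Past the adjusted threshold there were 0 in either (background 0.413% and 0.0948%). The methods' test then called 24 members against Ctrl (6.37%, background 13.8%), 17 higher and 7 lower, and 12 against NLH (3.15%, background 6.44%), 9 higher and 3 lower. The whole table turned likewise, since of all transcripts this test called, 37.5% and 28.4% were higher in LH with all mice, and 70.9% and 69.1% without LH 3 and LH 4. The median difference of all members moved from -0.05 to 0 in LH vs. Ctrl and from -0.12 to -0.02 in LH vs. NLH, and that of all transcripts in the table from -0.06 to 0 and from -0.08 to 0. Members past the unadjusted threshold were thus mostly lower in LH with all mice and mostly higher without these 2 libraries, and the part of depth in this was not tested.

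**Figure D3:**
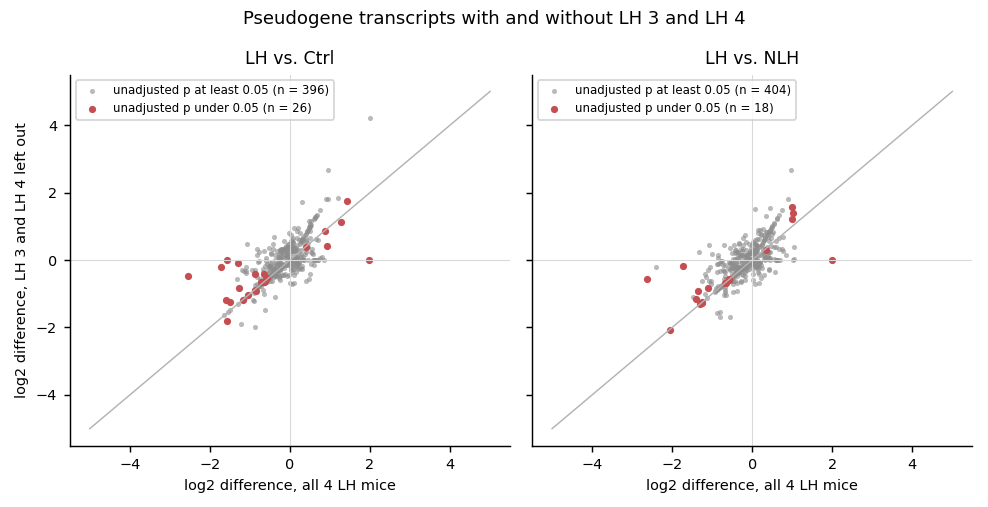
Difference on the log2(FPKM + 0.1) scale of each of the 422 members with all 4 LH mice (x axes) and with LH 3 and LH 4 left out (y axes), in a panel each for LH vs. Ctrl and for LH vs. NLH, where members at an unadjusted p under 0.05 by limma are in red and the diagonal marks equal values. Of the red members, 20 of 26 in LH vs. Ctrl and 13 of 18 in LH vs. NLH lie left of 0, and several of those come near 0 on the y axis.

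RP23-354L15.1 (chr12:21543307-21554521, 4 exons), the copy of Taf1b with a stop codon in its frame, was 1.43, 1.33, 1.11 and 2.98 FPKM in HC mice, 0.846, 2.92, 3.06 and 3.81 in Ctrl, 3.16, 2.11, 4.02 and 1.42 in NLH, and 1.71, 1.60, 0 and 0 in LH. The 2 zeros are LH 3 and LH 4, and the other LH mice lay within the range of each group. The difference was -2.54 ± 0.87 in LH vs. Ctrl (adjusted p = 0.322 by limma, exact permutation p = 0.0857) and -2.63 ± 0.87 in LH vs. NLH. Without LH 3 and LH 4 these became -0.47 ± 0.55 and -0.56 ± 0.55. It shares no 150-base window with another gene, and Taf1b differed by 0.23 ± 0.16 in LH vs. Ctrl.

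Gm16518 (chr11:3697430-3698326), a distant copy of the spindle gene Nusap1 (70.8% identity), had the same pattern. It was 1.00, 0.692, 1.36 and 0.566 in NLH and 0.956, 0.576, 0 and 0 in LH, with the zeros again in LH 3 and LH 4. LH vs. NLH was -1.73 ± 0.67 with all mice (adjusted p = 0.501 by limma) and -0.19 ± 0.43 without these 2 libraries. Gm12539, related to the chromatin remodelling gene Smarce1, was 1.22, 1.19, 1.34 and 1.09 in Ctrl and 0.768, 0.707, 0.292 and 1.37 in LH. LH 4 was the highest LH mouse and LH 3 the lowest, so that the groups overlapped through LH 4 only. LH vs. Ctrl was -0.71 ± 0.30 (adjusted p = 0.423 by limma), and -0.64 ± 0.19 without both libraries, with an adjusted p of 0.146 by limma. Leaving out LH 3 alone gave -0.37 and LH 4 alone -1.01.

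The methods' test after the exclusion called 4 of 341 members (1.17%) in both LH comparisons, which share the LH mice, against 1.81% of all transcripts. The most abundant of them was 2810025M15Rik (chr1:157412352-157420236, 3 exons), a transcribed processed pseudogene, at 1.21, 1.74, 1.32 and 1.57 in Ctrl, 1.47, 1.48, 1.82 and 1.33 in NLH, and 1.89, 1.92, 2.26 and 1.75 in LH. Every LH mouse was above every Ctrl mouse, with LH 4 at 1.75 next to Ctrl 2 at 1.74, and NLH 3 reached into the LH range. LH vs. Ctrl was 0.41 ± 0.16 (adjusted p = 0.391 by limma, exact permutation p = 0.0286), and 0.38 ± 0.18 without LH 3 and LH 4. LH vs. NLH was 0.34 ± 0.16 (adjusted p = 0.565 by limma, exact permutation p = 0.0571), and 0.31 ± 0.18 without these libraries. Its exons overlap those of Rasal2, a Ras GTPase-activating protein gene on the opposite strand, whose summed level differed by 0.02 ± 0.12 in LH vs. Ctrl.

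Gm13854 (chr6:33375111-33377446, minus strand, inside Exoc4 on the opposite strand), the diverged copy of Hspa8 printed above, was 0.632, 0.765, 0.992 and 0.736 in Ctrl, 0.931, 0.628, 0.869 and 0.721 in NLH, and 0.694, 0.351, 0.451 and 0.518 in LH. Of the LH mice, 3 were below all Ctrl and NLH mice, and LH 1 lay within their range. Differences were -0.56 ± 0.22 against Ctrl (adjusted p = 0.398 by limma) and -0.57 ± 0.22 against NLH (adjusted p = 0.501 by limma), with an exact permutation p of 0.0571 for each, and -0.54 ± 0.25 and -0.56 ± 0.25 without LH 3 and LH 4. No 150-base window is shared with another gene, and Hspa8, at a mean of 388.9 FPKM, differed by 0.11 ± 0.16 in LH vs. Ctrl.

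The other members called in both were much lower. Nlrp1c-ps (chr11:71242430-71281219, 12 exons), related to the inflammasome sensor gene Nlrp1a, was 0.0637, 0.137, 0.121 and 0.0788 in Ctrl, 0.102, 0.0890, 0.0931 and 0.106 in NLH, and 0.0321, 0.0249, 0.0861 and 0.0294 in LH. LH lay below NLH throughout, and LH 3 was the mouse that reached into Ctrl. A second Nlrp1c-ps transcript, called higher in LH vs. Ctrl by the same test, was at 0.000653 to 0.000869 in Ctrl and 0.000818 to 0.00121 in LH. Gm16340 (chr1:173776529-173798270, 8 exons), with 95.2% identity to the interferon-inducible gene Ifi203, was 0.144, 0.0947, 0.125 and 0.0738 in Ctrl and 0, 0.0217, 0.0417 and 0 in LH, without overlap, while NLH (0.0192 to 0.117) overlapped both. In LH vs. Ctrl these differed by -0.49 ± 0.31 and -0.86 ± 0.28, with adjusted p of 0.610 and 0.303 by limma, and without LH 3 and LH 4 by -0.62 ± 0.37 and -0.91 ± 0.34. In LH vs. NLH they differed by -0.48 ± 0.31 and -0.57 ± 0.28, and without these libraries by -0.62 ± 0.37 and -0.63 ± 0.34. The 0.1 added to FPKM is of the size of these levels, so the differences are smaller than those of FPKM alone. At such levels a value rests on few fragments, since 1 fragment in 1000 bases was worth 0.0329 to 0.0620 FPKM by the depth estimate. The first Nlrp1c-ps transcript and Gm16340 are longer, with 3323 and 2555 coding bases aligned, so 1 fragment is worth less on them.

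**Figure D4:**
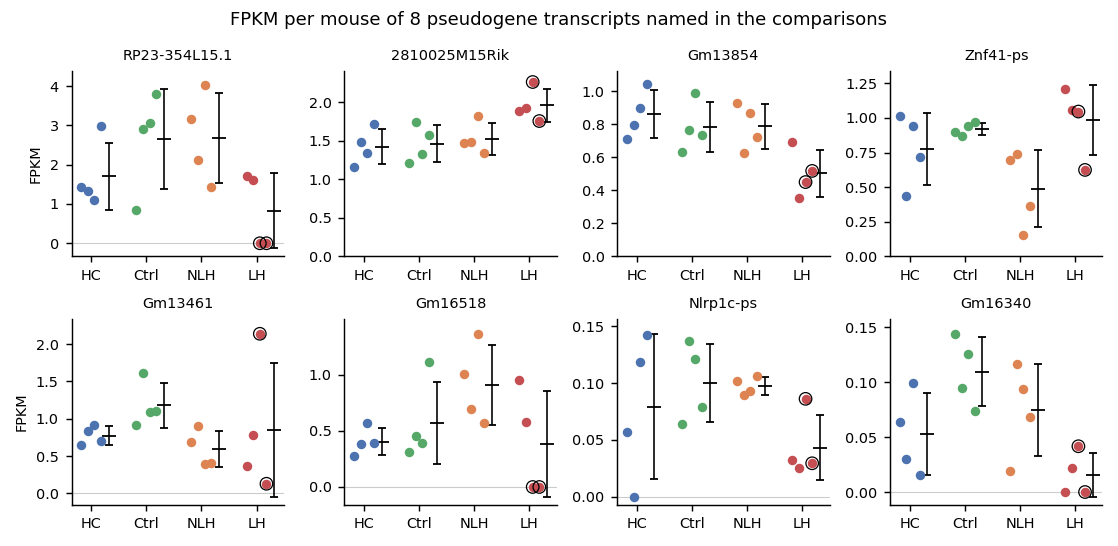
FPKM (y axes) of 8 pseudogene transcripts named in the comparisons, 1 point per mouse by group, with the group mean and SD beside the points and open rings around LH 3 and LH 4. RP23-354L15.1 and Gm16518 are at 0 in the ringed LH mice only, whereas 2810025M15Rik is at 1.75 to 2.26 in all LH mice and Gm13854 at 0.351 to 0.694.

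Where the name of a pseudogene gives its parent, the levels of both were compared across the 16 mice. Of 44 pseudogene names with such a form, 15 had a parent in the table, with 12 parents in all. Of these 15 pseudogenes, 4 were above 0 in all mice and 5 in 1 mouse, so that the correlation of the latter rests on that mouse. On the log2 scale 6 correlations were positive and 9 negative, with a median Pearson's r of -0.103. After Benjamini-Hochberg adjustment over the 15 pairs, 0 had a permutation p under 0.05 (smallest 0.0506), and 2 had an unadjusted p under 0.05. Those pairs, Alms1-ps1 with Alms1 and Rpl29-ps1 with Rpl29, lie outside the rule for named pairs and were chosen after their values were seen. The labels give no batch within which to repeat the correlations.

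Alms1-ps1 and Alms1 were positively related (r = 0.657, permutation p = 0.00570, adjusted 0.0506; rho = 0.538, permutation p = 0.0342, adjusted 0.513). With group means removed r was 0.629, without LH 3 and LH 4 it was 0.561, and without the 2 mice farthest from the median of Alms1 it was 0.596. With levels divided by size factors r fell to 0.311. Alms1-ps2, a second pseudogene of Alms1 at a mean of 0.386 FPKM and also outside the rule, had r = -0.114 and rho = -0.0118. Of the windows of Alms1-ps1, 26.5% occur unchanged in coding transcripts of another gene. How far shared reads contribute to its correlation was not tested. Rpl29-ps1 and Rpl29 were negatively related (r = -0.669, permutation p = 0.00675, adjusted 0.0506; rho = -0.440, permutation p = 0.0893, adjusted 0.670). Rpl29-ps1 was above 0 in 8 mice. LH 4 had its highest level, 1.56 FPKM, and the lowest level of Rpl29, 21.5 FPKM, while the other mice had 0.565 or less of Rpl29-ps1. Without LH 4 and Ctrl 1, the mice farthest from the median of Rpl29, r was -0.294, so that the relation rests on those mice. It was -0.446 without LH 3 and LH 4, -0.603 with group means removed, -0.577 with size factors and -0.697 on linear FPKM.

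The 4 pairs whose pseudogene had a mean of at least 0.5, all named by the rule, showed weaker relations. Pisd-ps2 with Pisd had r = 0.376 (rho = 0.153) and Pisd-ps1 with Pisd had r = 0.164 (rho = 0.347). Tdgf1-ps2 with Tdgf1, a co-receptor of Nodal signaling, had r = 0.172 (rho = 0.00294), and Stxbp3-ps with Stxbp3, a regulator of vesicle fusion, had r = -0.0635 (rho = 0.0647). The permutation p of these 4 were 0.143 to 0.822 for r, and adjusted over the 15 pairs 0.536 to 0.822. For Pisd-ps2, r was -0.0279 without LH 3 and LH 4, which had the lowest Pisd levels of all mice (5.76 and 6.39 FPKM).

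**Figure D5:**
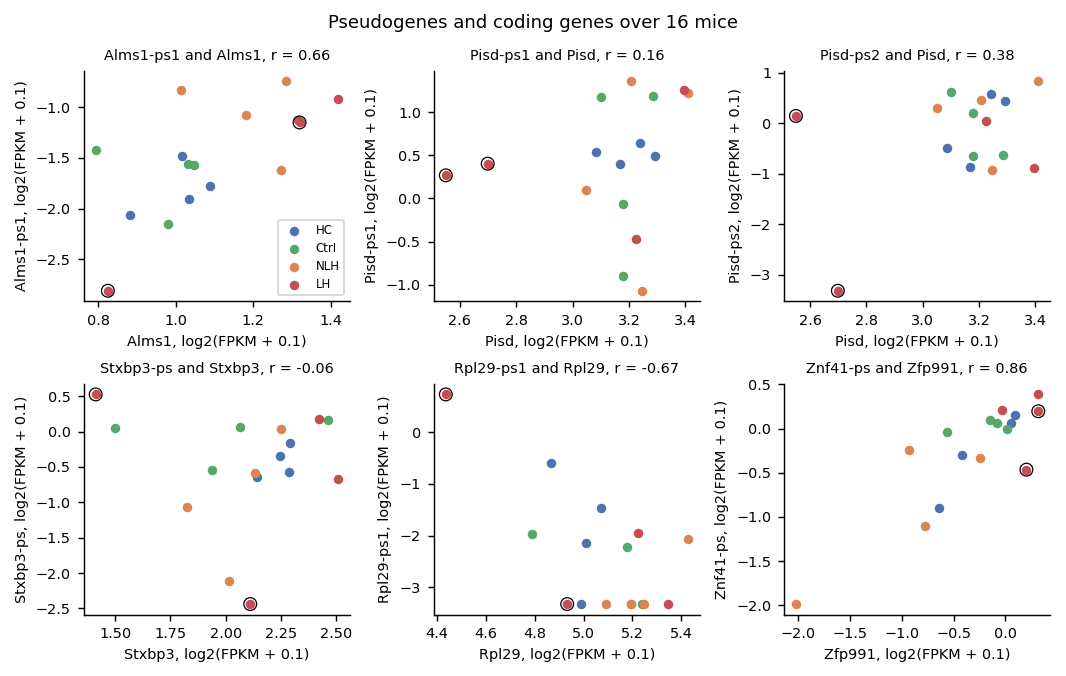
Level on the log2(FPKM + 0.1) scale of a pseudogene (y axes) against that of a coding gene (x axes) for 6 pairs, 1 point per mouse colored by group, with open rings around LH 3 and LH 4. Pearson's r is given above each panel and runs from -0.67 for Rpl29-ps1 and Rpl29 to 0.86 for Znf41-ps and Zfp991.

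As a list, the 12 parent genes had 0 members past limma's adjusted threshold in any of the 4 comparisons, where the background over gene sums was 0% in Ctrl vs. HC and LH vs. Ctrl, 0.00547% in NLH vs. Ctrl and 0.0109% in LH vs. NLH. At an unadjusted p under 0.05 there were 0 in Ctrl vs. HC, 2 higher in NLH vs. Ctrl, 1 higher in LH vs. Ctrl, and 1 in each direction in LH vs. NLH. Over gene sums of the whole table the corresponding background was 2.70%, 5.59%, 11.5% and 7.54%. The median difference of the list was 0.01, 0.05, 0.08 and -0.08 in that order, and that of all genes 0.02, 0.06, 0 and -0.06. By the symbol of the pseudogene alone, which leaves out relatives with other names, 7 members of 2 Pisd pseudogenes had means of 0.00806 to 0.636, with 1 called by the methods' test in Ctrl vs. HC and 0 in the other comparisons. The 2 ribosomal protein pseudogenes, Rpl29-ps1 and Rpl31-ps23, had means of 0.193 and 0.0166, with 0 called. Rpl37rt, without the ending ps, was not counted with them. The 21 members of 6 zinc finger pseudogenes had means of 0.00879 to 1.37, with 1 called in each of Ctrl vs. HC, NLH vs. Ctrl and LH vs. NLH. For these families the methods' test has the background given above, 6.71%, 7.23%, 7.73% and 4.49% of all transcripts.

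Znf41-ps, named for another zinc finger gene, was compared with its closest coding gene Zfp991, a pair chosen after its values were seen among 168 pairs of pseudogenes and closest coding genes. Pearson's r was 0.861 (permutation p = 0.000310, adjusted over the 168 pairs 0.0521, with a range of 0.0168 to 0.176 over the alternative settings) and rho 0.709 (permutation p = 0.00326, adjusted 0.274). With group means removed r was 0.773, without LH 3 and LH 4 it was 0.909, and without the 2 mice farthest from the median of Zfp991 it was 0.747. NLH 3 was lowest in both, at 0.152 and 0.146 FPKM. How far reads shared by the pair contribute to this correlation was not tested.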

How the data were processed

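According to the methods of the study, reads of 2 × 150 bases were mapped to mm10 with HISAT2, assembled and merged with StringTie 1.2.3, and quantified with Cufflinks. The submitters' processing notes name STAR 2.42a in place of HISAT2. The authors deposited FPKM values per transcript and mouse, and how they filtered the transcripts is not given in the sources used here, nor is the strand of the libraries. Members, gene lists and tests were chosen with earlier results of these data known.

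Values of all 80137 transcripts in 16 mice, as log2(FPKM + 0.1), were analysed with limma 3.58.1 in R 4.3.3 with 4 group means, its trend and robust options and p adjusted by Benjamini-Hochberg, and so was FPKM summed over 18287 gene names. The 0.1 added exceeds the median member level of 0.0821, so differences of low members come out smaller on this scale. The methods' test was Student's test on FPKM. Transcripts whose values were numerically 0 in all 8 mice were left out of it, a choice made after seeing the data. Exact permutation tests of mean FPKM were two-sided, and correlations used 100000 permutations. P-values measure the spread between mice. The transcripts named were the 10 highest by mean, any past limma's adjusted threshold, the 4 with the smallest limma p at a mean of at least 0.5 in each comparison, those called by the methods' test in both LH comparisons after the exclusion, and pairs with a named parent at the same level. The steps between low FPKM values at 1962 loci gave an estimate of depth. Sequences were compared with BLAST 2.17.0 (e-value limit 1e-10). Python 3.11.15 with numpy 2.4.6, pandas 2.3.3, scipy 1.17.1 and matplotlib 3.10.9 was used. Both tests were first tested on simulated data. Mice with the same number did not deviate together (median r -0.00835 over 24 pairs), so numbers were used as a block only as an alternative. Further alternatives were other pseudocounts, size factors, filters, unequal variances and mice left out. The coding gene closest to 1 of the named transcripts is not reported here.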

Additional observations from a re-analysis of the deposited data

Results flagged for a closer look

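Among the 24 transcripts named in the comparisons or among the 10 highest, 96 groups of 4 mice were examined for a mouse whose gap to its nearest neighbor, divided by the range of the group, exceeded Dixon's critical value at 95%. This held in 4 groups (4.17%), where chance alone gives about 1 in 20. Nlrp5-ps was 3.35 FPKM in NLH 3 and 1.49 to 1.71 in the other NLH mice. Zfp939 was 1.42 in Ctrl 4 and 0.429 to 0.592 in the others, and without that mouse Ctrl vs. HC fell from 0.90 to 0.58. Gm15429, identical to Aph1a, was 0.794 in HC 3 and 0.236 to 0.289 in the others. Nlrp1c-ps was 0.0861 in LH 3 and 0.0249 to 0.0321 in the others, and without that mouse LH vs. Ctrl was -0.62. LH 4 was far from the rest in 0 of these groups.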

How the results depend on the processing

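Every alternative of the limma fit kept 0 members past the adjusted threshold in all 4 comparisons, over 62 alternative values, which included other pseudocounts, size factors, gene sums and each mouse left out. With mice of the same number as a replicate block, limma had 8, 11, 23 and 18 members at an unadjusted p under 0.05 in Ctrl vs. HC, NLH vs. Ctrl, LH vs. Ctrl and LH vs. NLH, against 7, 10, 26 and 18 without the block (3.42%, 5.11%, 10.3% and 8.51% of all transcripts with it). Past the adjusted threshold the block still left 0 members in each. The numbers did not pair the mice. With each mouse left out in turn, limma's unadjusted counts ranged from 5 to 11, 7 to 16, 16 to 30 and 18 to 32 in the same order. The corresponding shares of all transcripts are not given here. Counts of the methods' test moved, from 10, 16, 16 and 12 in the same order. Unequal variances gave 4, 10, 11 and 7, a mean FPKM of at least 1 gave 0, 2, 1 and 2, adjusted p gave 0 in each, and groups that do not overlap numbered 3, 9, 9 and 5. Of all transcripts, unequal variances called 5.23%, 5.53%, 5.72% and 3.21%, and with a mean of at least 1 the share was 11.3%, 12.7%, 12.1% and 4.63%, against 0%, 9.09%, 4.55% and 9.09% of the 22 members at that level. With each mouse left out they ranged from 5 to 14, 10 to 19, 12 to 20 and 5 to 15, or 1.29% to 3.65%, 2.57% to 4.95%, 3.21% to 5.26% and 1.30% to 4.00% of members, where all transcripts had 5.52% to 6.44%, 5.65% to 8.54%, 5.81% to 10.2% and 3.20% to 5.49%. The lowest counts came without Ctrl 3 (5), Ctrl 1 (10), either Ctrl 2 or Ctrl 4 (12 each) and LH 4 (5). In LH vs. NLH they were 6 without NLH 4, 6 without LH 3 and 7 without LH 2. The 21 differences of transcripts named by their p or by the methods' test kept their direction in all 291 alternative values, and that of Gm8325 was not among them. These transcripts were chosen by the same values, and the alternatives use most of the same mice, so a kept direction carries little weight. Sizes did change, as given with the comparisons. Signs of r turned for Pisd-ps2 (-0.0971 with size factors and -0.0279 without LH 3 and LH 4, which are also its 2 farthest mice), Tdgf1-ps2 (-0.0415 on linear FPKM and -0.0447 with group means removed) and Stxbp3-ps (0.208 without LH 3 and LH 4 and 0.465 without the 2 farthest mice). The cause of these changes was not tested. Depth limits members near the value of 1 fragment, and 4 mice per group limit the tests.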

Other observations

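Coding genes other than named parents could be set beside more of the members, in comparisons added after the values had been seen. For 168 pseudogenes and their closest coding gene, 100 correlations across the 16 mice were positive and 68 negative, with a median r of 0.0817. After adjustment 0 had a permutation p under 0.05 (smallest 0.0521), and 18 did before it. The median was 0.125 in 16 pairs that share at least 50% of their windows and 0.0841 in 106 pairs that share no window. The highest r, 0.871 for Gm11855 and the mismatch repair gene Msh6, fell to 0.248 without the 2 farthest mice, LH 2 and LH 4.

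For 30 pseudogenes inside a coding gene on the same strand, 18 correlations with that gene were positive and 12 negative, and 0 passed the adjusted threshold (smallest adjusted permutation p 0.845, with 1 under 0.05 before adjustment). Only 1 gene name held both a pseudogene transcript and a transcript of the protein-coding class.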
